A study of Bos taurus with 8 samples.

Results

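The 78 cattle genes with symbols beginning MRPL or MRPS and a number were described in rumen tissue, the fermentation chamber of the ruminant stomach. They were chosen by symbol from a table of 33132 genes, with a minimum of 10 counts in total over the 8 libraries. That minimum left 76 genes, which also passed the filter on low counts with 16326 genes in all. RNA came from 4 adult steers (castrated males) and 4 neonatal male calves, all angus cross, with 1 library per animal. Steers differed from calves in age and castration together, no agent was given in either group by the labels, and the labels give no diet or batch. The study asks which transcriptional programmes accompany growth and maturation of the rumen after birth, and its design gives 1 comparison, steer against calf.

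These genes encode the proteins of the mitochondrial ribosome, which is made from nuclear-encoded proteins and mitochondrial RNA. It translates only the messages of mitochondrial DNA, which encode core subunits of the respiratory chain and ATP synthase. Its large subunit joins amino acids and its small subunit reads the message. Some of its proteins have relatives in bacterial ribosomes and others are found in mitochondria alone. The rumen wall, lined by a keratinised epithelium that absorbs and oxidises short-chain fatty acids, relies on mitochondrial respiration.

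Libraries held 42322022 to 54449684 counts, and every tested member had 128 to 13651 counts in each library. Every list of cell type markers but that of cycling cells held markers called by edgeR between the groups. Of 8 basal keratinocyte markers 2 were higher and 1 was lower in steers, with sums of 8391 to 15993 CPM in steers and 11699 to 17100 CPM in calves. KRT14 had a log2 change of 1.69 ± 0.41, DST 0.84 ± 0.19 and COL17A1 -1.79 ± 0.27, while KRT5, at 3491 ± 604 CPM in steers and 3161 ± 213 CPM in calves (SD, n = 4 each), was not called. Of 10 tested smooth muscle markers 5 were higher and 1 was lower, with sums of 11489 to 111488 CPM in steers and 6463 to 18724 CPM in calves. Of 6 fibroblast markers none was higher and 3 were lower, with sums of 566 to 1350 CPM in steers and 1625 to 4738 CPM in calves. Of 5 tested leukocyte markers 3 were higher and 1 was lower (sums of 24.5 to 74.5 CPM in steers and 49.7 to 101 CPM in calves), and of 7 enteric neuron and glia markers 3 were lower (14.9 to 25.1 CPM in steers and 36.6 to 50.9 CPM in calves). Of 6 endothelial markers 1 was lower (121 to 231 CPM in steers and 183 to 339 CPM in calves), as was 1 of 4 tested adipocyte markers (27.5 to 434 CPM in steers and 4.68 to 501 CPM in calves). Of 4 tested striated muscle markers 1 was higher and 2 were lower (14.97 to 49.1 CPM in steers and 32.5 to 69.2 CPM in calves), and MYH1 was at 0 in every library. None of 10 cycling-cell markers was called. Over all genes tested, 7.7% were higher and 9.16% lower in steers. Apart from a smooth muscle covariate, the part of these cell types in the members' changes was not tested.

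Most of the mitochondrial ribosomal protein genes stood somewhat higher in steers than in calves, and a minority passed the test. Of 76 members, 12 (15.8%) were higher in steers and none was lower, by edgeR's quasi-likelihood test at a Benjamini-Hochberg adjusted p under 0.05 over all genes. Over all 16326 genes, 7.7% were higher and 9.16% were lower, 16.9% in all. The log2 change, steer minus calf, was positive for 72 members (94.7%), against 52.4% of all genes. Its median was 0.45 over the members and 0.04 over all genes, and it ran from -0.39 for MRPL23 to 1.21 for MRPS36. The steer and calf values did not overlap for 18 members, each of them higher in steers, against 10.5% of all genes higher and 12.8% lower in steers without overlap. The 12 called members had a median change of 0.79 and a median SE of 0.20, against 0.38 and 0.27 for the 64 not called.

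The count of 12 and the median both changed when single libraries were left out, which also leaves fewer animals in the fit. The count was 4 without calf 1, where 4.23% of all genes were higher, 6 without calf 2 (6.14%), 7 without calf 3 (5.15%), 6 without calf 4 (4.82%) and 7 without steer 1 (6.01%). It was 11 without steer 2 (6.6%), 8 without steer 3 (5.1%) and 10 without steer 4 (8.85%). The median was 0.28 without steer 1, 0.32 without calf 2 and 0.45 to 0.60 without any other single library. With steer 1 and calf 2 both left out the median was 0.13, with 3 of 76 members called (5.15% of all genes) and 50 positive. DESeq2 called 17 members and 11.9% of all genes higher. With library totals as the only scaling, 3 members and 5.11% of all genes were called higher, and the median of all genes shifted by -0.11. Relative to all genes the member median was 0.42 under that scaling and 0.41 under TMM, and 34.9% of all calls were higher in steers against 45.7%. In bulk tissue, fewer cells of a type and less RNA per cell cannot be told apart.

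**Figure D1:**
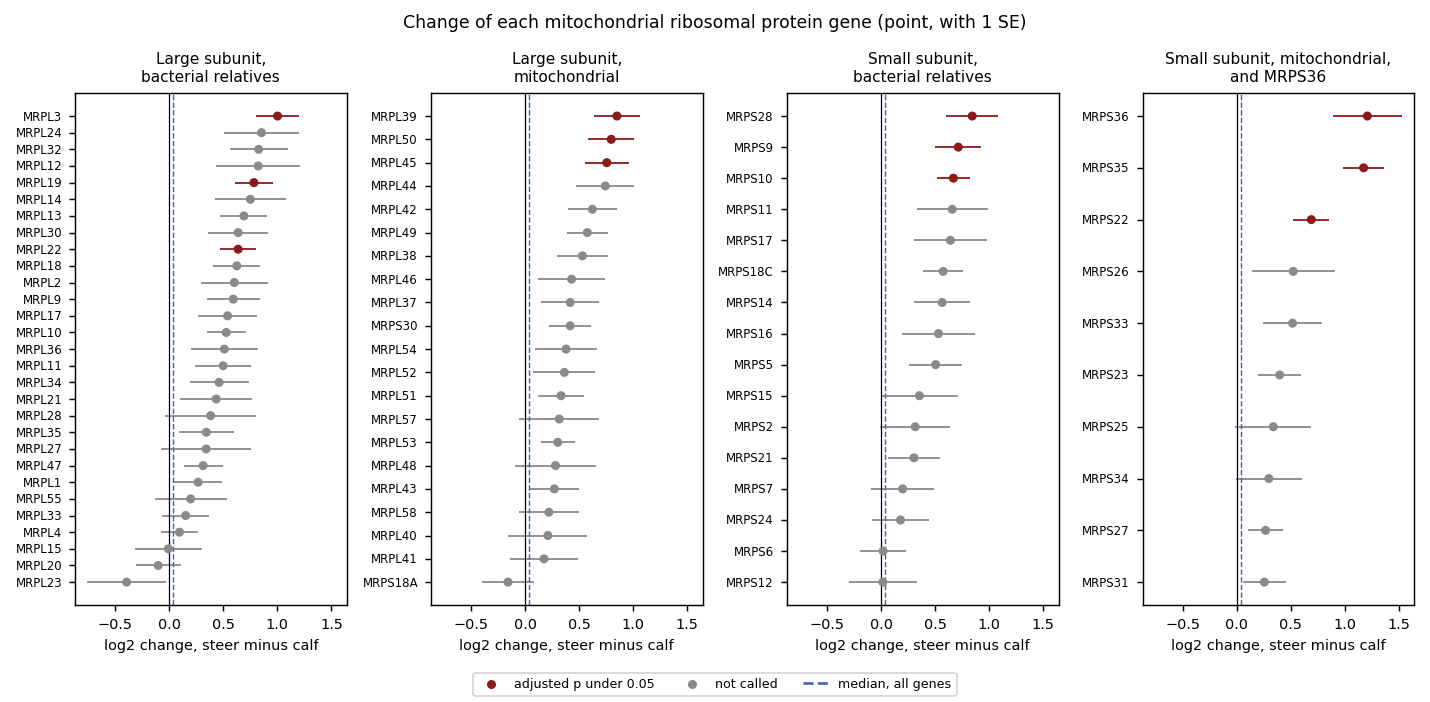
Each point is the log2 change of 1 member (x axis, steer minus calf) with 1 SE, in 4 panels by subunit and class. The classes are bacterial relatives and mitochondrial, with MRPS18A, a relative of MRPS18C, in the mitochondrial class. Red points are the 12 members past an adjusted p of 0.05. Nearly all points lie right of 0, and the dashed line marks the median of all genes, 0.04.

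In the large subunit, 6 of 50 tested members were higher (12%, against 7.7% of all genes). Of their changes 46 were positive, with a median log2 change of 0.43. Among the 29 classed as having bacterial relatives 3 were higher, and among the 21 classed as mitochondria-specific 3 were higher. The latter class includes MRPS18A, although it is related to MRPS18C and so to bacterial S18. The largest change belonged to MRPL3, relative of a bacterial protein beside the peptide-bond-forming centre (chromosome 1, 138384515 to 138441535). It had 56.3, 52.1, 62.3 and 73.0 CPM in steers 1 to 4, against 36.0, 26.7, 34.0 and 25.1 CPM in calves 1 to 4. The lowest steer stood above the highest calf. The log2 change was 1.00 ± 0.20 (SE; adjusted p = 0.00814), a 2.00-fold difference, and MRPL3 was called under each of the 22 alternative settings.

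MRPL19, whose bacterial relative lies at the face between the subunits (chromosome 11, 44019412 to 44030088), was the steadiest of the called large-subunit members in steers. It had 29.5, 26.5, 31.3 and 28.6 CPM in steers, against 15.8, 16.3, 19.7 and 15.6 CPM in calves. The groups were well apart, calf 3 stood above the other calves, and the log2 change was 0.78 ± 0.17 (adjusted p = 0.0134). MRPL22, relative of a protein that lines the tunnel through which the new chain leaves (chromosome 7, 66108715 to 66147126), had 28.2, 23.9, 24.8 and 25.0 CPM in steers, against 16.7, 14.7, 16.8 and 17.5 CPM in calves. Its log2 change was 0.64 ± 0.17 (adjusted p = 0.0281), the smallest among the called members, yet its groups did not overlap.

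The called mitochondria-specific proteins of the large subunit were MRPL39, MRPL50 and MRPL45. MRPL39, which resembles a threonyl-tRNA synthetase (chromosome 1, 10823337 to 10839082), had 24.7, 17.5, 24.8 and 26.2 CPM in steers, against 10.2, 12.7, 14.2 and 14.7 CPM in calves. Steer 2 was the lowest steer and calf 1 the lowest calf, and the log2 change was 0.85 ± 0.21 (adjusted p = 0.0222). MRPL50 (chromosome 8, 91113172 to 91120279) had 26.1, 22.5, 20.9 and 27.3 CPM in steers, against 17.1, 10.3, 15.2 and 13.2 CPM in calves, with a log2 change of 0.80 ± 0.21 (adjusted p = 0.0298). MRPL45 sits at the tunnel exit and holds the ribosome to the inner membrane (chromosome 19, 38966103 to 38985587). It had 77.7, 61.6, 44.8 and 55.8 CPM in steers, against 36.7, 29.9, 37.9 and 37.7 CPM in calves. Steer 1 was the highest steer and calf 2 lay below the other calves, and the log2 change was 0.75 ± 0.21 (adjusted p = 0.0321).

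In the small subunit, 5 of 25 tested members were higher (20%, against 7.7% of all genes). All 25 changes were positive, with a median of 0.50. The largest was that of MRPS35, a protein found in mitochondria alone (chromosome 5, 82080452 to 82132163). It had 43.1, 38.5, 52.4 and 46.3 CPM in steers, against 17.9, 18.2, 18.8 and 25.2 CPM in calves. The means were 45.1 ± 5.84 CPM in steers and 20.02 ± 3.46 CPM in calves (SD, n = 4 each), a log2 change of 1.17 ± 0.19 (adjusted p = 0.00355) or 2.25-fold. Calf 4 stood above the other calves but below every steer, and the call held under each of the 22 alternatives. MRPS22, also mitochondria-specific (chromosome 1, 129741106 to 129754516), had 35.8, 34.2, 35.8 and 40.9 CPM in steers, against 21.6, 20.5, 25.5 and 23.4 CPM in calves, a log2 change of 0.69 ± 0.17 (adjusted p = 0.0198).

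Of the small-subunit members with bacterial relatives, MRPS10, MRPS9 and MRPS28 were called. MRPS10, relative of a protein of the subunit's head (chromosome 23, 15918487 to 15932587), varied little within either group. It had 70.7, 63.8, 74.9 and 71.9 CPM in steers, against 40.4, 46.1, 46.2 and 44.2 CPM in calves, and a log2 change of 0.67 ± 0.16 (adjusted p = 0.0172). With MRPL3 and MRPS35 it was the third member still called with calf 2 and steer 1 both left out. MRPS9, also of the head (chromosome 11, 9113663 to 9153087), had 71.0, 65.1, 41.7 and 66.1 CPM in steers, against 35.3, 30.6, 39.4 and 43.4 CPM in calves. It was the only called member whose groups overlapped, because steer 3 fell below calf 4, and its log2 change was 0.71 ± 0.21 (adjusted p = 0.0468). It was called under 7 of the 22 alternatives, the fewest of the 12. MRPS28, related to bacterial S1 (chromosome 14, 43120077 to 43222183), had 16.2, 9.74, 11.8 and 14.96 CPM in steers, against 7.59, 5.97, 8.54 and 7.28 CPM in calves, a log2 change of 0.84 ± 0.24 (adjusted p = 0.0371).

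MRPS36 carries a ribosomal name, but its product is known as an adapter of the 2-oxoglutarate dehydrogenase complex of the citric acid cycle and not as a subunit. It lies on chromosome 20, 10467519 to 10475679. It had 8.25, 5.46, 10.1 and 12.2 CPM in steers, against 2.98, 3.96, 5.39 and 3.26 CPM in calves. The lowest steer was only just above the highest calf, and the log2 change was 1.21 ± 0.32 (adjusted p = 0.0296), the largest change of the 76. Of its span, 75.03% is shared with LOC101902030, and reads lying in both genes were dropped, so its counts came from the rest.

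With each library left out in turn, MRPS35, MRPL3 and MRPL19 were called in all 8 fits. MRPS10 (adjusted p = 0.0661) and MRPS22 (adjusted p = 0.0643) lost their call without calf 1, and MRPL39 without calf 1 or steer 3 (adjusted p up to 0.0691). MRPL50 lost it without calf 2, calf 3, calf 4 or steer 1 (up to 0.0743), and MRPS36 without calf 1, calf 2, calf 4, steer 3 or steer 4 (up to 0.0857). MRPL45 lost it without any 1 calf, steer 1 or steer 2 (up to 0.0789), and MRPL22 without any 1 calf, steer 1 or steer 3 (up to 0.0755). MRPS28 was called only without steer 2 (up to 0.0857 otherwise) and MRPS9 only without steer 3 (up to 0.117 otherwise). The log2 changes themselves stayed between 0.58 and 1.40 in these fits.

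**Figure D2:**
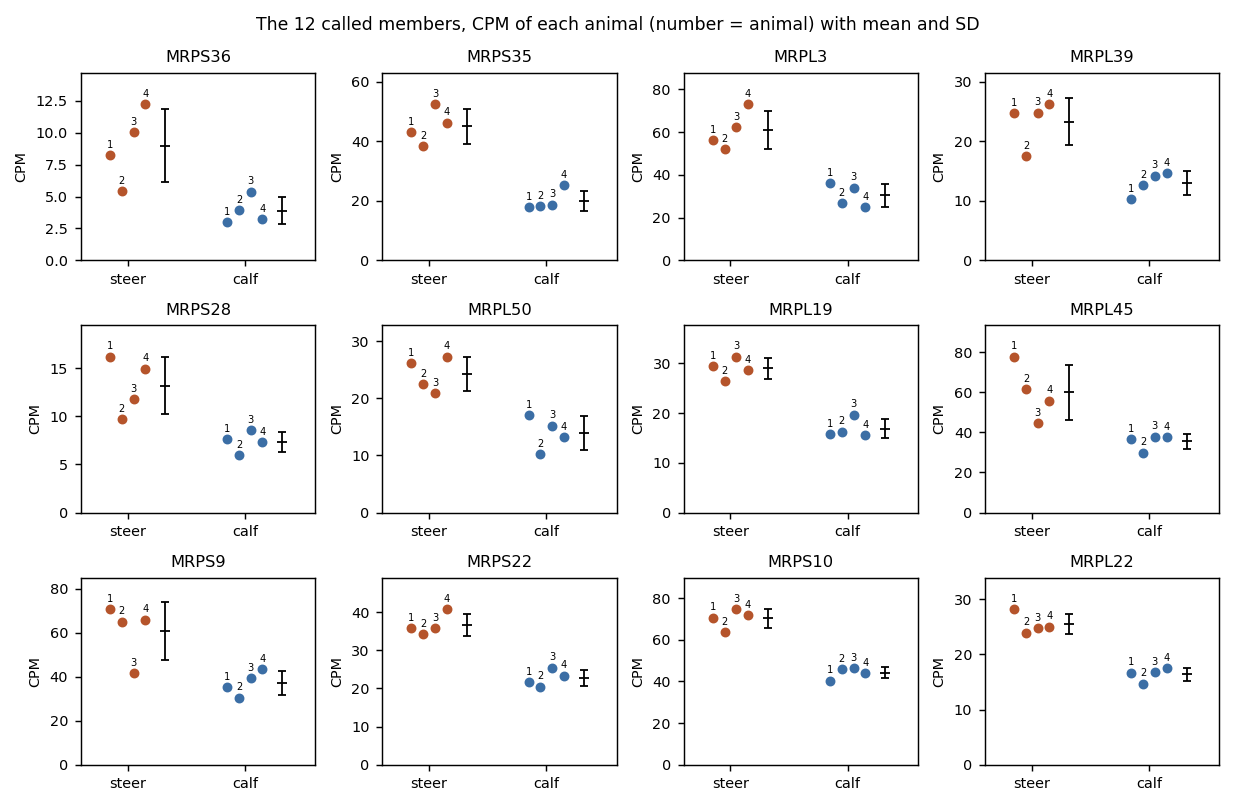
CPM (y axis, from 0) of the 12 called members in each animal, steers left and calves right, with the animal's number above its point and the mean and SD beside each group. In all but MRPS9 every steer stands above every calf.

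Several members with a well-known part in translation did not pass the test. MRPL12, which forms the stalk that recruits translation factors, had 341, 240, 168 and 144 CPM in steers, against 145, 52.4, 138 and 170 CPM in calves. Steers 3 and 4 were below calf 4, and the log2 change of 0.82 ± 0.39 did not pass (adjusted p = 0.181). MRPL10, which holds MRPL12 in the stalk, averaged 61.0 ± 8.46 CPM in steers and 42.3 ± 5.004 CPM in calves without overlap (log2 change 0.53 ± 0.18; adjusted p = 0.0711). MRPL11, at the stalk base, had a log2 change of 0.50 ± 0.26 (adjusted p = 0.226). MRPL2, of the peptide-bond-forming centre, had 0.60 ± 0.31 (adjusted p = 0.216). MRPL58, a peptidyl-tRNA hydrolase that also frees stalled ribosomes, had 0.22 ± 0.28 (adjusted p = 0.64). In the small subunit, MRPS12, of the decoding centre, averaged 38.4 ± 15.96 CPM in steers and 38.0 ± 10.7 CPM in calves (log2 change 0.02 ± 0.32; adjusted p = 0.978), MRPS5, at the message entrance, had 0.50 ± 0.24 (adjusted p = 0.189) and MRPS2 had 0.32 ± 0.32 (adjusted p = 0.55).

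The largest changes among members not called were those of MRPL24, MRPL32, MRPL12, MRPL14 and MRPL44. MRPL24, whose relative is near the tunnel exit, had 110, 78.9, 41.3 and 49.8 CPM in steers, against 40.9, 22.4, 41.4 and 50.2 CPM in calves. Steers 3 and 4 lay within the range of the calves, and the log2 change was 0.85 ± 0.35 (adjusted p = 0.123). MRPL14, whose relative is at the subunit interface, had 180, 125, 78.1 and 82.9 CPM in steers, against 87.7, 40.4, 69.6 and 80.0 CPM in calves (log2 change 0.75 ± 0.33; adjusted p = 0.15), again with steers 3 and 4 inside the calf range. MRPL32, whose maturation by a membrane protease is known from yeast and mouse, had 10.8, 8.18, 12.2 and 13.04 CPM in steers, against 4.31, 6.41, 8.29 and 5.96 CPM in calves (log2 change 0.83 ± 0.27; adjusted p = 0.0617). Only steer 2 was within the calf range there. MRPL44, with a fold like that of RNase III, averaged 25.9 ± 8.37 CPM in steers and 15.5 ± 3.41 CPM in calves (log2 change 0.74 ± 0.27; adjusted p = 0.0889).

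Steer and calf values also lay apart without a call for MRPL13, MRPL18, MRPL9, MRPL49, MRPS18C and MRPL53, besides MRPL10. MRPL49, for example, had 33.5, 32.7, 44.8 and 35.5 CPM in steers, against 21.2, 27.8, 27.0 and 22.3 CPM in calves (log2 change 0.57 ± 0.19; adjusted p = 0.0628). The 4 negative changes were small against their errors. MRPL23 had -0.39 ± 0.36 (adjusted p = 0.505), MRPS18A -0.16 ± 0.24 (adjusted p = 0.697), MRPL20 -0.10 ± 0.21 (adjusted p = 0.784) and MRPL15 -0.01 ± 0.31 (adjusted p = 0.987).

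The 3 MRPS18 genes encode related proteins that sit in different places. MRPS18A, part of the large subunit, averaged 45.8 ± 7.87 CPM in steers and 51.1 ± 14.2 CPM in calves. MRPS18C, the small-subunit protein nearest to bacterial S18, averaged 17.9 ± 2.01 CPM in steers and 11.996 ± 1.35 CPM in calves (log2 change 0.57 ± 0.19; adjusted p = 0.0635). ABRAXAS1 shares 62.7% of the MRPS18C span. MRPS18B could not be measured: its span on chromosome 23, 28366315 to 28372878, lies wholly inside PPP1R10, and it had 0 counts in every library. MRPL16, on chromosome 15, 83015478 to 83020195 and wholly inside STX3, likewise had 0 counts. A count of 0 there follows from the dropping of reads that lie in more than 1 gene and gives no limit on expression. MRPS30, despite its symbol a protein of the large subunit, averaged 18.5 ± 2.87 CPM in steers and 13.8 ± 1.52 CPM in calves (log2 change 0.42 ± 0.20; adjusted p = 0.18).

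Levels between members can be set side by side only per kilobase of the counted span, which includes introns, so that long genes read low. On that scale MRPL41, a mitochondria-specific protein of the large subunit, was the most abundant, at 202 CPM per kilobase in steers and 179 in calves. MRPS34 followed at 145 in steers and 118 in calves, MRPL57 at 103 in steers and 83.1 in calves, MRPS26 at 71.8 in steers and 50.03 in calves, and MRPL36 at 65.6 in steers and 46.1 in calves. None of these 5 was called. Their log2 changes were 0.17 ± 0.32 for MRPL41, 0.30 ± 0.30 for MRPS34, 0.31 ± 0.37 for MRPL57, 0.52 ± 0.38 for MRPS26 and 0.51 ± 0.31 for MRPL36. MRPS28 was the least abundant at 0.129 CPM per kilobase in steers and 0.0720 in calves. MRPL1, MRPL48, MRPS27 and MRPL22 were next above it. Their log2 changes were 0.27 ± 0.23 for MRPL1, 0.28 ± 0.37 for MRPL48, 0.27 ± 0.16 for MRPS27 and, as the called member among them, 0.64 ± 0.17 for MRPL22.

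The share of members called differed with the counted span. None of the 26 members with a span up to 5012 bases was called, against 5 of 25 with a span up to 14101 bases and 7 of 25 with a longer one. Among all genes in these span classes 7.99%, 8.02% and 7.52% were higher in steers. The median log2 change of the members was 0.36, 0.43 and 0.57 from short to long, while the median SE was 0.31, 0.26 and 0.23. The called members had a median span of 17616 bases and those not called of 6214 bases. Some part of the span was shared with another gene for 24 tested members, of which 3 were called, against 9 of the 52 with an unshared span. Over all genes 7.7% were higher, and their shares with and without shared span were not computed.

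Within each group the members moved together from animal to animal. Steer 1 was above the steer mean for 67 of 76 members, steer 2 for 36, steer 3 for 13 and steer 4 for 26. Calf 1 was above the calf mean for 57 members, calf 2 for 5, calf 3 for 58 and calf 4 for 62. Among all genes these shares lay between 47.4% and 53.5% in every animal. The median deviation of the members from their own group's mean was 0.42, -0.04, -0.29 and -0.15 on the log2 scale in steers 1 to 4, and 0.14, -0.50, 0.07 and 0.28 in calves 1 to 4.

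Steer 1 was the highest steer for 55 members (22.6% of all genes), and calf 2 was the lowest calf for 64 (31.6% of all genes). Both held at once for 53 members (69.7%), against 14.7% of all genes. The summed level of the 76 members was 6495, 4924, 3734 and 3926 CPM in steers, against 3924, 2372, 3577 and 4434 CPM in calves. Calf 4 was thus above steers 3 and 4. As a share of all counts, with no TMM scaling, the members held 0.552%, 0.418%, 0.422% and 0.411% in steers, against 0.362%, 0.300%, 0.371% and 0.427% in calves. Steer 1 was again the highest and calf 2 the lowest library, and calf 4 was above steers 2, 3 and 4. The TMM factor was 0.849 in steers 1 and 2 and 1.27 in calf 2. A larger factor lowers CPM, so the scaling widened the gap between steer 1 and calf 2.

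The size of the shared movement differed between members. MRPS17 was 2.73 times as high in steer 1 as in steer 3, and MRPL24 2.65 times, while MRPL49 was at 0.749 of its steer 3 level. MRPL28 was 3.37 times as high in calf 4 as in calf 2 and MRPL12 3.25 times, but MRPL3 stood at 0.938, MRPL19 at 0.957 and MRPS10 at 0.957. Exceptions were few: calf 2 was above the calf mean only for MRPL47, MRPL32, MRPS36, MRPS10 and MRPL49. Steer 1 was below the steer mean for MRPS22, MRPL3, MRPL32, MRPS35, MRPS18C, MRPL53, MRPS31, MRPS36 and MRPL49. Of the 12 called members only MRPL22, MRPS9, MRPS28 and MRPL45 had both steer 1 highest and calf 2 lowest. The median deviation of the called members was 0.07 in steer 1 and -0.15 in calf 2, against 0.47 and -0.56 for the members not called. The spread within groups enters the test itself, so these values describe the called members and are not independent of the call.

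**Figure D3:**
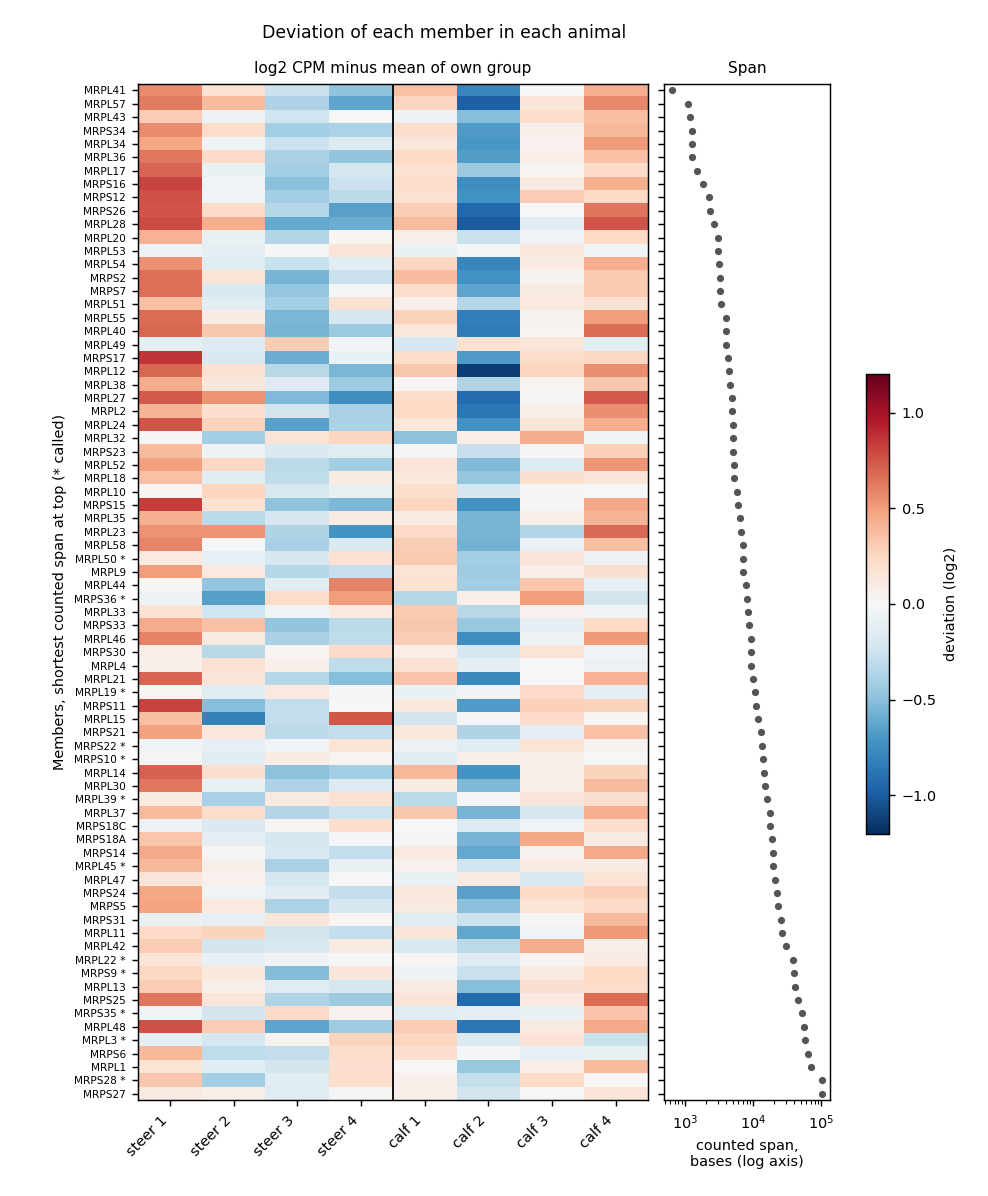
Colour shows the log2 CPM of each of the 76 members (rows) in each animal (columns) minus the mean of its own group, with the counted span of each member at right on a log axis, shortest at the top. Steer 1 is red and calf 2 blue for most rows, most strongly among short spans, and rows marked with an asterisk, the called members, are mostly pale.

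The deviations were larger in members with short spans. In steer 1 the median deviation was 0.65 for short, 0.36 for middle and 0.30 for long spans, and in calf 2 it was -0.73, -0.41 and -0.32. All genes of short span deviated the same way by less, with 0.27 in steer 1 and -0.31 in calf 2, and all genes of long span stood at -0.11 and 0.10. Across all tested genes the slope of log2 CPM, centred on each gene's mean, on log10 span was lowest in steer 1 (-0.274) and highest in calf 2 (0.276), and lay between -0.054 and 0.081 in the other 6 libraries. With that slope as a covariate, an alternative chosen after the data were seen, 13 members were called (10.2% of all genes higher), 11 of them among the 12, and the median log2 change was 0.23 with 56 positive. The part of this library property in the shared movement was not tested further.

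Of the other gene lists set beside the members, several also stood high in steer 1 and low in calf 2. The 5 mitochondrial ribosome proteins with other names had median deviations of 0.45, -0.01, -0.35 and -0.09 in steers 1 to 4, and 0.17, -0.59, 0.02 and 0.35 in calves 1 to 4. The nuclear genes of the respiratory chain had a median deviation of 0.46 in steer 1 and -0.74 in calf 2. The cytosolic ribosomal proteins, which build the ribosomes outside mitochondria, had 0.50 in steer 1 and -0.54 in calf 2. Smaller deviations of the same sign were those of the assembly factors (0.14 in steer 1 and -0.19 in calf 2), the translation factors (0.15 and -0.22) and the tRNA synthetases (0.15 and -0.21). The 13 mitochondrially encoded genes had -0.15 in steer 1 and 0.13 in calf 2. Markers of cycling cells summed to 543 CPM in steer 1 and 210 CPM in calf 2, against 345 to 409 CPM in the other steers and 441 to 777 CPM in the other calves. The smooth muscle markers did not follow the order of the members, with 57161, 111488, 54263 and 11489 CPM in steers. With the smooth muscle level as a covariate 12 members were called (7.45% of all genes higher), 9 of them among the original 12.

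**Figure D4:**
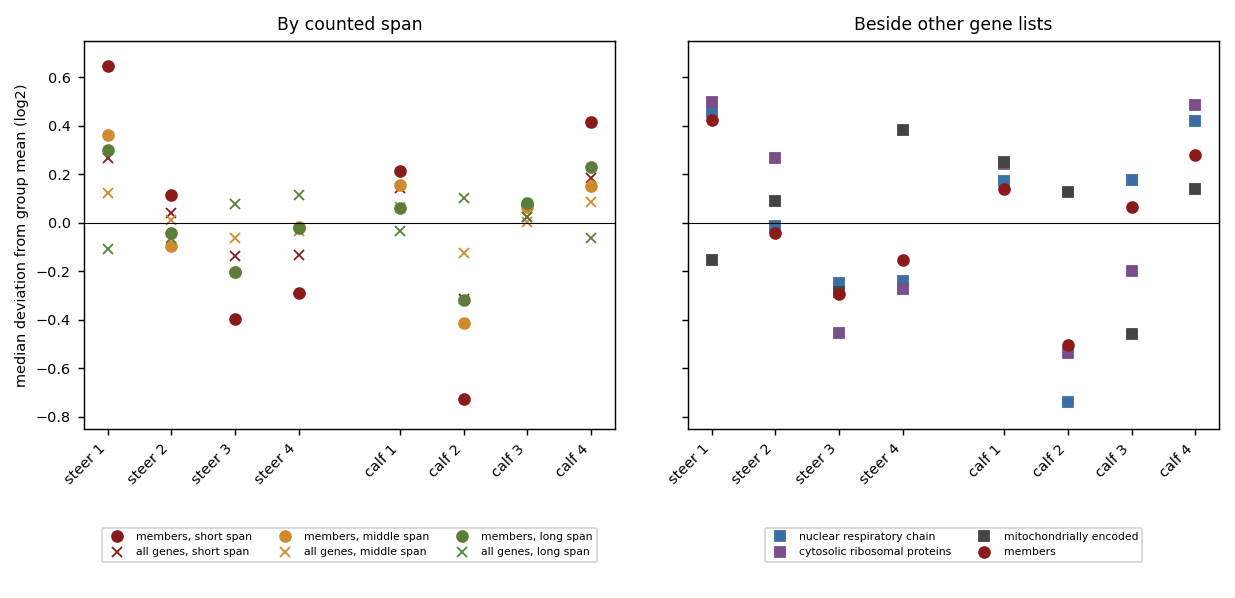
Median deviation from the own group's mean (y axis, log2) in each animal, at left for members (circles) and all genes (crosses) in 3 span classes and at right for members and 3 other gene lists. Short-span members reach 0.65 in steer 1 and -0.73 in calf 2, and the nuclear respiratory chain list follows the members. The cytosolic ribosomal list differs from the members in sign in steer 2 (0.27) and calf 3 (-0.20). The mitochondrially encoded genes do not follow the members.

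Between the groups, 8 of the 13 mitochondrially encoded genes, whose messages the mitochondrial ribosome translates, were higher in steers and none was lower, with a median log2 change of 1.05. Over all genes tested, 7.7% were higher in steers. The 13 genes took 3.92%, 4.66%, 5.11% and 7.69% of counts in steers, against 2.49%, 2.56%, 1.81% and 2.28% in calves. COX1, the catalytic subunit of cytochrome c oxidase, had a log2 change of 1.77 ± 0.35 (adjusted p = 0.00860), ND4L of complex I 1.84 ± 0.49 (adjusted p = 0.0289) and ATP8 of ATP synthase 1.41 ± 0.36 (adjusted p = 0.0239). ND4L and ATP8 averaged only 53.5 and 17.5 CPM in steers, against 2611 for ND4 and 3627 for ATP6. ND4 was called at 1.05 ± 0.28 (adjusted p = 0.0303), and ATP6 was not, at 0.73 ± 0.29 (adjusted p = 0.115). Of 77 tested nuclear respiratory chain genes 13 were higher and none was lower (median 0.59), among them SDHD at 1.55 ± 0.17 (adjusted p = 0.000493), CYCS at 1.45 ± 0.33 and COX7C at 1.25 ± 0.32. None of 82 cytosolic ribosomal protein genes was called in either direction, with a median of 0.09. RPLP1, the most abundant of them, averaged 8292 ± 3562 CPM in steers and 8395 ± 3107 CPM in calves.

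Mitochondrial ribosome proteins with other names had no call, by the same edgeR test. DAP3, a GTP-binding protein of the small subunit, had a log2 change of 0.29 ± 0.19, PTCD3 0.07 ± 0.22, CHCHD1 0.03 ± 0.25, AURKAIP1 0.56 ± 0.34 and GADD45GIP1 0.57 ± 0.41. Of 26 tested assembly factors 2 were higher (median 0.23), no more than expected from the 7.7% of all genes higher. They were GTPBP10, a GTPase of large-subunit assembly, at 0.89 ± 0.25 (adjusted p = 0.0359) and NSUN4, an RNA methyltransferase, at 0.62 ± 0.19 (adjusted p = 0.0463). Of 18 translation factors 2 were higher (median 0.44), against 7.7% of all genes. These were TSFM, the exchange factor for mitochondrial elongation factor Tu, at 0.98 ± 0.25 (adjusted p = 0.0254) and MTRF1, a release factor, at 0.88 ± 0.24 (adjusted p = 0.0324). None of 19 mitochondrial tRNA synthetase and amidotransferase genes was called (median 0.22). CARS2, the most abundant of them, had -0.32 ± 0.29 (adjusted p = 0.494).

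Of 18 genes of mitochondrial DNA transcription, replication and RNA processing 3 were higher and none was lower (median 0.36). Over all genes 7.7% were higher and 9.16% lower. MTERF1, a mitochondrial DNA binding termination factor, had 0.97 ± 0.23 (adjusted p = 0.0168), TEFM, the mitochondrial elongation factor of transcription, 0.87 ± 0.25 (adjusted p = 0.0377) and SSBP1, the single-stranded DNA binding protein, 0.86 ± 0.19 (adjusted p = 0.0135). Among 10 nuclear regulators of mitochondrial genes only ESRRA, the estrogen-related receptor alpha, was higher, at 1.11 ± 0.23 (adjusted p = 0.00929). Its coactivator PPARGC1A had 1.597 ± 0.49 (adjusted p = 0.0505), and NRF1, a known activator of genes for mitochondrial proteins, -0.31 ± 0.22 (adjusted p = 0.364). PPRC1 had -0.70 ± 0.23 (adjusted p = 0.0671) and MYC -0.52 ± 0.24 (adjusted p = 0.18). The 10 regulators had a median of 0.06, with 5 positive. With 1 library left out, COX1, SDHD, MTERF1, SSBP1 and ESRRA were called in all 8 fits, CYCS lost its call without calf 1 (adjusted p = 0.0504) and COX7C without calf 1 or steer 1 (up to 0.0653). ATP8 and TSFM were called in 4 of 8 fits, ND4L in 3, GTPBP10, MTRF1 and TEFM in 2 and NSUN4 in none (adjusted p up to 0.127), each losing its call without calf 1 and also without calf 4.

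**Figure D5:**
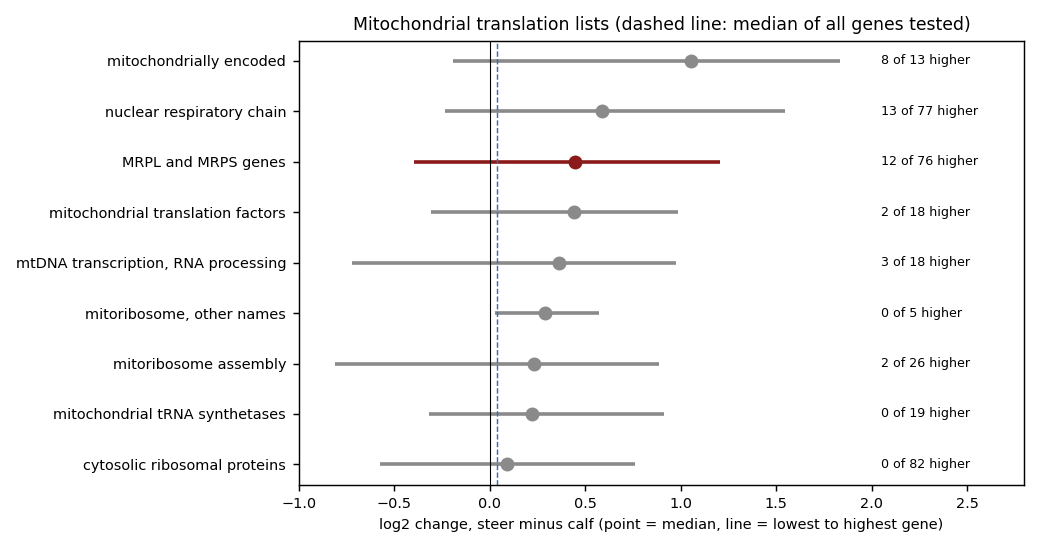
Median (point) and full range (line) of the log2 change, steer minus calf, for the 76 members (red) and 8 related lists, with the number of tested genes called higher at right. Of the lists shown, the mitochondrially encoded genes have the highest median, 1.05. The cytosolic ribosomal proteins have the lowest, 0.09, next to the dashed line of all genes at 0.04. The list of nuclear regulators, with a median of 0.06, is not shown.

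Some of these genes start near the start of a gene on the other strand. Of the 78 members 28 had such a start within 1000 bases, and the share among all genes was not computed. MRPL46 and MRPS11 are each other's neighbour, 41 bases apart on chromosome 21, and had log2 changes of 0.43 ± 0.31 (MRPL46) and 0.66 ± 0.33 (MRPS11), neither called. The 24 tested neighbours that were not members had a median log2 change of 0.05, with 14 positive. Of them 1 was higher and none lower, against 7.7% and 9.16% of all genes. The gene called higher was PELI3, beside MRPL11, with 2.7999 ± 0.54 (adjusted p = 0.00729). MRPL50, a called member, starts 120 bases from ZNF189, which had 0.26 ± 0.28 (adjusted p = 0.577). Without strand in the counting, reads of neighbours that overlap cannot be assigned. Such overlaps ran from 3 bases, for MRPS12 with SARS2, to 605 bases for MRPL2 with KLC4 and 655 bases for MRPL40 with LOC101906870.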

How the data were processed

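The authors deposited raw whole-number counts for each gene symbol. According to the header of the count table (per the file headers), featureCounts 2.0.2 assigned reads to the full extent of transcripts, introns included, ignoring strand. The 2 mates of a fragment were counted singly (86.9% to 89% of counts from 1 to 10 were even), and reads in more than 1 gene were dropped. The submitters' processing notes also name Trimmomatic 0.39, STAR 2.7.11a and DESeq2 1.42.0. For the genome build, which was not given in the sources used here, positions are those of the table. A reference table of ARS-UCD2.0 gave symbols and chromosome numbers only, and all 78 members matched it. Promoters and proteins were not analysed here.

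CPM used TMM-scaled library sizes. The steer-calf difference was fitted on all 8 libraries with edgeR 4.0.16 in R 4.3.3, using filterByExpr, TMM, a robust quasi-likelihood fit, and Benjamini-Hochberg adjustment over 16326 genes. Every adjusted p in the text is from that test unless another tool is named. SE was obtained as the log2 change over the root of the F statistic, and ± after a mean is SD over 4 animals. P-values set the steer-calf difference against the spread between these animals within a group. No library repeated another (smallest chi-square per degree of freedom 113). The common biological coefficient of variation was 41.8%.

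In counts simulated for this comparison over 16052 genes, the procedure recovered 6% of 100 genes changed 2-fold and 67.3% of 98 changed 4-fold, and 6.49% of calls were unchanged genes.

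Members and lists were chosen with earlier results of these data known, so counts and medians of lists are descriptions without a test. Named members were the called ones, the 5 most and 5 least abundant per kilobase, the 5 largest changes among those not called, and a list of known parts, 37 in all. Up to 3 called genes were named per related list, or the most abundant where none was called. Further genes, such as the 4 negative changes, those in the animal patterns, the neighbours, PPARGC1A, NRF1, PPRC1 and MYC, were added after their values were seen. Alternatives were other scalings, filters and tools (DESeq2, limma-voom 3.58.1), a replicate block, each library left out, abundant or mitochondrial genes left out, and a smooth muscle covariate. The span slope covariate and leaving out calf 2 and steer 1 together were added after seeing the data.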

Additional observations from a re-analysis of the deposited data

Results flagged for a closer look

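In 7 of 108 groups of 4 animals checked, 1 animal lay far from the other 3 for the size of the group, and chance gives about 1 in 20. MRPS35 had 25.2 CPM in calf 4, against 17.9 to 18.8 CPM in the other calves. MRPL39 had 17.5 CPM in steer 2, against 24.7 to 26.2 CPM in the other steers. MRPL19 had 19.7 CPM in calf 3, against 15.6 to 16.3 CPM in the other calves. Calf 2 was low for MRPL45 at 29.9 CPM, against 36.7 to 37.9 CPM in the others, and for MRPS12 at 22.1 CPM, against 41.4 to 45.2 CPM. Outside the members, SDHD had 68.8 CPM in calf 3, against 56.3 to 57.1 CPM in the other calves, and COX7C had 394 CPM in steer 1, against 220 to 228 CPM in the other steers. In all of these genes but MRPS12 the steer and calf values did not overlap.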

How the results depend on the processing

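No member was called lower under any of the 22 alternatives, and MRPS35 and MRPL3 were called under each. The number higher (12, against 7.7% of all genes) was 3 with library totals as scaling (5.11% of all genes). It was also 3 without calf 2 and steer 1 together (5.15%), where the median log2 change fell to 0.13. Over the other scalings, filters, tools, covariates and gene exclusions it was 11 to 17, with 5.64% to 11.9% of all genes higher. The 17 came with DESeq2, which kept all 12. Leaving out 1 library each gave 4 to 11 calls (4.23% to 8.85% of all genes) and medians of 0.28 to 0.60. The labels do not say that the numbers pair the animals. Deviations of same-numbered animals had correlations of 0.199, 0.0826, -0.0953 and -0.266. With 4 animals a group, whose deviations are not independent, these values cannot settle whether the numbers pair them. With the number as a replicate block 2 members were called, MRPL3 and MRPS35. That was 2.63% of the members, against 4.81% of all genes higher.

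Small changes turned sign. MRPS12 (0.02) was -0.10 with library totals, -0.012 with limma-voom and -0.0090 with the replicate block, and CHCHD1 (0.03) was -0.073 with library totals. With the smooth muscle covariate MRPL41 was -0.073, MRPL57 -0.011 and MRPS18A 0.071. With the span slope covariate MRPL41 was -0.13, MRPS34 -0.019, MRPL57 -0.0532, MRPL48 -0.15, MRPL58 -0.067, MRPS2 -0.041, MRPS12 -0.35 and CHCHD1 -0.21. Without calf 2 and steer 1 together MRPL41 was -0.24, MRPS34 -0.10, MRPL57 -0.15, MRPS26 -0.014, MRPL48 -0.24, MRPL58 -0.17, MRPS2 -0.14, MRPS12 -0.50 and CHCHD1 -0.30. The cause was not tested. Over the fits that leave out 1 library each, the change ran from -0.30 to 0.15 for MRPS12, -0.14 to 0.16 for CHCHD1, -0.21 to 0.20 for RPLP1, -0.031 to 0.33 for MRPL41, -0.32 to 0.0087 for MRPS18A, -0.014 to 0.46 for MRPL48 and -0.0030 to 0.35 for MRPL58.

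For single genes and lists over all alternatives, 949 values kept direction and call, 145 lost and 8 gained a call, and 37 changed sign. The simulated recovery of 6% at 2-fold is for genes drawn from the whole table, with only a small part of them changed. Members had a median SE of 0.26, against 0.34 for all genes tested. The 6% is therefore not an estimate for the members, whose recovery was not simulated. Promoter motifs were planned and not run.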
